A study of Mus musculus with 2 samples.

Results

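The genes described here are 6 liver genes that need the pulsatile secretion of growth hormone: Cyp4a12a, Cyp4a12b, Selenbp2, Elovl3, Ugt2b38 and Mup6. They were chosen by name from genes of this type, with their values in both pools already known, and are 6 of the 1750 genes with a named row of their own. Each had 1 such row, and no other row repeated its pair of values. Liver RNA was measured on 2 arrays, each holding the pooled RNA of 3 wild-type C57BL/6J mice, an inbred laboratory strain, aged 6 to 10 weeks. All mice had a jugular vein catheter placed on day 1 and were infused with saline from day 2. From day 3 the saline group stayed on saline and kept its food, whereas the parenteral nutrition (PN) group was fed through the vein and had its food taken away. Liver was taken on day 11, after 8 days of either infusion. PN and food removal went together, so their parts cannot be told apart. The labels used here give no sex, and of 6 sex chromosome genes listed (Xist, Tsix, Ddx3y, Kdm5d, Uty and Eif2s3y) 0 had a row of their own.

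Growth hormone reaches the mouse liver in separate pulses in males and more evenly in females. Each pulse activates the receptor-bound kinase JAK2 and through it the transcription factor STAT5B, which is phosphorylated, enters the nucleus and is switched off again before the next pulse. Genes that need this rhythm are high in male liver and fall when the pulses or STAT5B are lost, whereas continuous hormone favours the genes typical of female liver. The 6 genes encode enzymes of fatty acid metabolism (Cyp4a12a, Cyp4a12b, Elovl3), a conjugating enzyme (Ugt2b38), a selenium-binding protein (Selenbp2) and a secreted pheromone carrier (Mup6).

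Since STAT5B acts through DNA, the bases upstream of the start sites are shown for the members that the RefSeq promoter table (build GRCm38.p6) holds, which are 3 of 6. Each line gives the 250 bases before the start, 5′ to 3′ on the gene's strand, and capitals mark matches to the motif searched.
Mup6 (chr4:60003231-60003480, + strand): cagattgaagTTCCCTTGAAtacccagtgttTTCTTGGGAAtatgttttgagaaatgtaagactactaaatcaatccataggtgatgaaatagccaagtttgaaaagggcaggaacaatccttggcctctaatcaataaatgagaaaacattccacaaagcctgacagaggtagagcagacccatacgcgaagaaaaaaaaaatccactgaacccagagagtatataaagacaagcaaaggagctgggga
Selenbp2 (chr3:94693323-94693572, + strand): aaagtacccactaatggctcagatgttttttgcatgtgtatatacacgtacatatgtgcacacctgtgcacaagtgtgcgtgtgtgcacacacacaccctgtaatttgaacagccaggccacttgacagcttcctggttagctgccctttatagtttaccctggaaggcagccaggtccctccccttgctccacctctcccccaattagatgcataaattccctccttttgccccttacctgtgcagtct
Ugt2b38 (chr5:87424204-87424453, - strand): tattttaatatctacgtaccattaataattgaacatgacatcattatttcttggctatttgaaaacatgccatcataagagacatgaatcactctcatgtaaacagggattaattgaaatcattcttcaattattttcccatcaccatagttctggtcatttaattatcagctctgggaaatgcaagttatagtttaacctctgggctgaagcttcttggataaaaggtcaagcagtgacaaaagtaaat
The classical STAT5 motif TTCNNNGAA reads the same on both strands and was found in 0 of these 3 windows. Over all 32851 windows of this length in the table, 7.02% held it. The same motif with 1 more base between its arms, also the same on both strands, was found in the Mup6 window alone, as TTCCCTTGAA and TTCTTGGGAA, which begin 240 and 219 bases before the start and do not overlap. It occurred in 5.85% of all windows. Counted per gene rather than per window, 8.13% of 27025 genes held the first motif and 6.76% the second. Among the other genes listed as pulsatile in type, 36 had a window, of which 4 held the first motif and 6 the second. Among the genes listed as continuous in type, 35 had a window, of which 5 held the first motif and 2 the second. These are matches of letters, and growth hormone signals also act through sites outside such windows.

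All 6 genes were lower in the PN pool than in the saline pool. Their differences, PN minus saline on the log2 scale of the deposited values, ran from -3.20 to -1.07 with a median of -1.88, which is 3.68-fold lower. As deposited, all 6 differed by 2-fold or more, against 7.20% of the named genes and 14.4% of all 5082 rows that were lower by that much. With levels under 3.26, a background level taken from chemosensory receptor genes, raised to it, 4 of the 6 did, all but the dim genes Ugt2b38 and Mup6. At 1.5-fold, the cutoff by which the authors kept rows, the background was 49.8% of named genes and 52.7% of rows. The median difference was 0.59 over all named genes and -0.60 over all rows. The cutoff keeps both away from 0, since it left no row near 0. With 872 named genes lower and 878 higher, the sign of their median turns on few genes. Because the members were picked with this contrast known, the member counts describe them and support nothing further. With 1 array per group there was no replicate check, no test was made, and the number of arrays limits the precision. In bulk RNA, fewer cells of a type and less RNA per cell cannot be told apart.

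**Figure D1:**
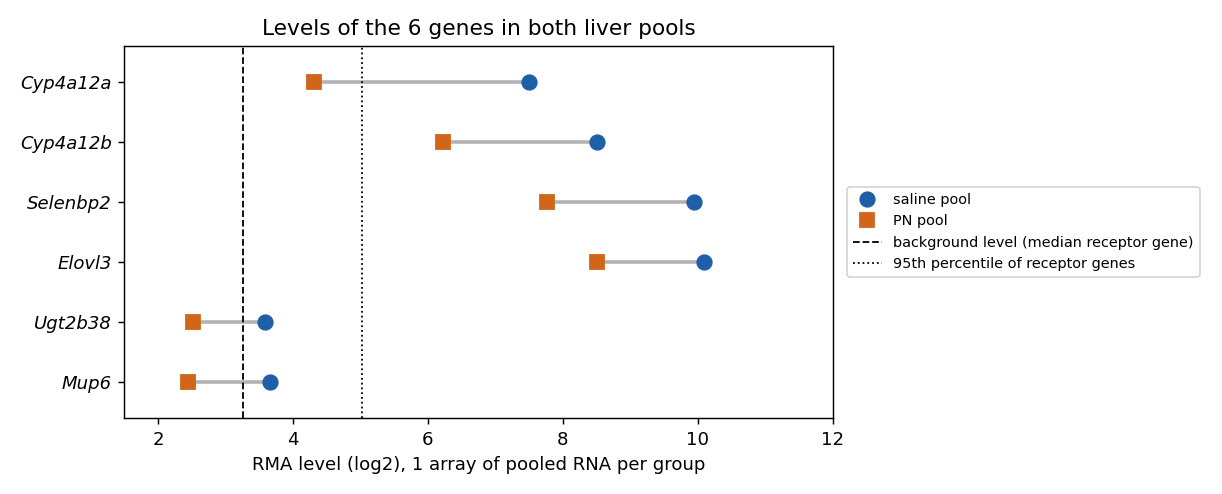
Levels of the 6 genes (log2) in the saline pool (circles) and the PN pool (squares), 1 array of pooled RNA each. The dashed line at 3.26 and the dotted line at 5.02 are the median and 95th percentile of the higher level of 133 chemosensory receptor genes. Every square lies left of its circle, and the Ugt2b38 and Mup6 pairs straddle the dashed line.

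The fatty acid hydroxylases stood at the low end of the differences. Cyp4a12a, a cytochrome P450 that hydroxylates arachidonic acid and other fatty acids at their far end, measured 7.50 under saline and 4.30 under PN. Its difference of -3.20, or 9.17-fold lower, was the lowest of all 1750 named genes as deposited. The PN level is not far above background, since 16 of 133 chemosensory receptor genes, which serve as background here, reached it. With levels raised to 5.02, the 95th percentile of those receptor genes, Cyp4a12a was at least 5.57-fold lower and was no longer the lowest: Orm2, with 8.79 and 6.18 and a difference of -2.60, then lay below its -2.48. Cyp4a12b, its close paralog and direct neighbour among coding genes on chromosome 4, had 8.51 and 6.23. Its difference of -2.28, or 4.87-fold lower, was the 7th lowest. The difference of Cyp4a12a exceeded that of Cyp4a12b by 0.91 in size, but probes of near-identical paralogs can read both transcripts, so the split between them is uncertain. Counting the pair as 1 gene, an alternative chosen after seeing the data, moved the median of the then 5 members to -1.59.

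Of the 8 Cyp4a genes listed, only these 2 had a named row. A further row shared by Cyp4a10 and Cyp4a32, which lie in the same gene cluster and are known as targets of the fatty acid receptor PPARA, measured 7.00 under saline and 5.54 under PN. It was 2.74-fold lower, a smaller difference than that of either Cyp4a12 gene. Of the 28 genes listed as PPARA targets and fatty acid oxidation genes, 4 had a named row. Fgf21, Crat and Acot4 were higher in the PN pool, by 1.85-fold, 1.59-fold and 1.58-fold, and Plin5, a lipid droplet coat gene, was 1.74-fold lower. Counting the shared Cyp4a row, genes of this list thus went both ways.

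Elovl3, an elongase that lengthens saturated and monounsaturated very long chain fatty acids, measured 10.1 under saline and 8.50 under PN. The difference of -1.59, or 3.01-fold lower, was the 23rd lowest of the named genes. Among the 7 Elovl genes listed, Elovl6, which elongates palmitate, was the only other one with a named row. It had 7.15 and 7.88 and was 1.66-fold higher. The 2 elongases with a value therefore went in opposite directions.

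Selenbp2, a selenium-binding protein of liver cytosol known for binding acetaminophen metabolites, measured 9.94 under saline and 7.77 under PN. It was 4.49-fold lower (difference -2.17, the 8th lowest), close to Cyp4a12b, from which it differed by 0.12. Its paralog Selenbp1, with 3 coding genes in between, had no named row. Tuft1, given for its place next to Selenbp2, differed by -0.89, and its other direct neighbour Cgn had no named row.

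Ugt2b38, a UDP-glucuronosyltransferase that conjugates lipophilic compounds for excretion, measured 3.59 under saline and 2.52 under PN. Mup6, a major urinary protein that liver secretes and urine carries as a pheromone binder, had 3.66 and 2.45. As deposited these are differences of -1.07 and -1.21, or 2.10-fold and 2.32-fold lower. Both genes were dim in both pools. Chemosensory receptor genes had a median higher level of 3.26, taken as background, though single ones reached up to 7.42. Of these 133 genes, 49 had a higher level above the saline level of Ugt2b38, and 47 above that of Mup6. With the PN levels raised to 3.26, Ugt2b38 was at least 1.25-fold and Mup6 at least 1.32-fold lower. All 133 are receptor genes whose rows passed the authors' 1.5-fold cutoff. Of them, 91 were lower in the PN pool, 8 by at least 2-fold and 5 by as much as Ugt2b38. The lowest stood at -1.41, below Mup6. The remaining 4 members had both levels above 3.26, with a median difference of -2.22, or 4.68-fold lower.

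The families of the dim pair had brighter rows. Of the 7 Ugt2b genes listed, 3 had a named row, the dim Ugt2b38 among them, and all 3 were lower. By comparison, 49.8% of all named genes were lower at 1.5-fold. Ugt2b1 had 10.5 and 9.85, a difference of -0.70, and Ugt2b35 had 6.58 and 5.75, a difference of -0.83. On chromosome 5, Ugt2b38 has 4 coding genes between it and Sult1e1, an estrogen sulfotransferase of the continuous type, which measured 2.91 under saline and 7.02 under PN. As deposited, this pair of genes went in opposite directions, and each had a level under 3.26. Of the 22 Mup genes listed, Mup21, known to be male-biased, was the only other one with a named row, with 8.51 and 6.98, 2.90-fold lower. A row shared by Mup10, Mup11, Mup18 and Mup22 had 8.80 and 8.20, 1.51-fold lower, and the pseudogene Mup-ps12, singled out after its value was seen, was 2.09-fold lower. Mup genes are near copies of each other, so which gene a Mup row measured is uncertain.

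**Figure D2:**
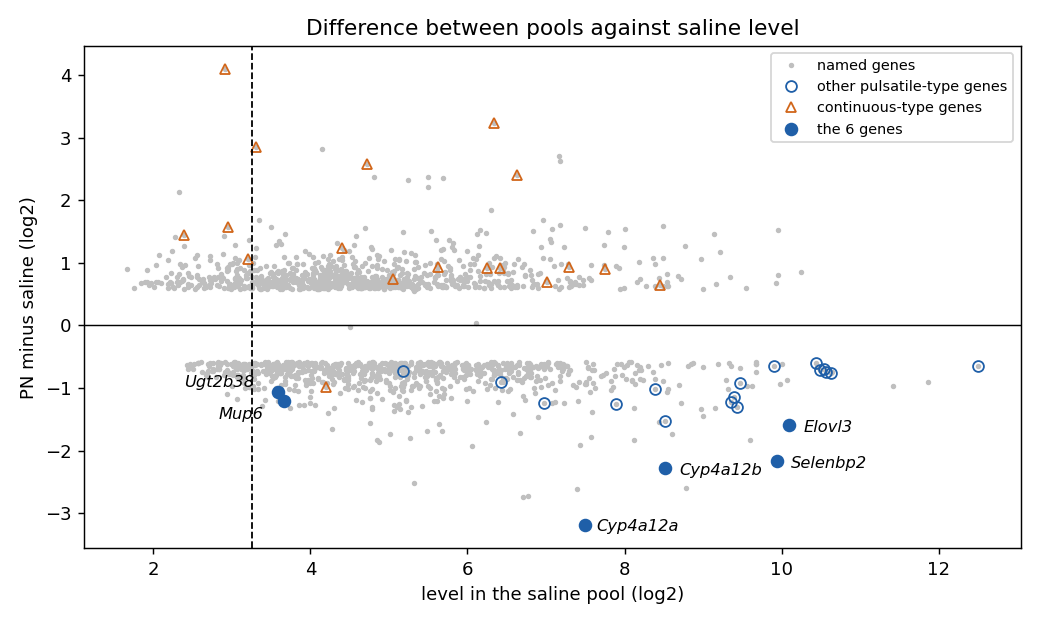
Difference between pools (PN minus saline, log2) against the level in the saline pool (log2) for the 1750 named genes (grey), the 6 genes (filled circles), 17 other genes of the pulsatile type (open circles) and 18 of the continuous type (triangles). The dashed line is the background level of 3.26, and the gap around 0 is the authors' 1.5-fold cutoff. The Cyp4a12 genes, Selenbp2 and Elovl3 lie below nearly all genes of like saline level, and Ugt2b38 and Mup6 lie close to the dashed line.

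Other genes known to be male-biased and pulsatile in type were lower as well. Of 48 listed, 17 had a named row, and all 17 were lower in the PN pool, 7 of them by at least 2-fold, with a median difference of -0.90 (1.87-fold lower). Over all named genes 49.8% were lower at 1.5-fold and 7.20% at 2-fold. The other 31 had none: they differed by less than the cutoff, share a row with other genes, carry no name here or were not measured. The directions of many of these genes were known when the list was written, so the count is no independent support. Their differences ran from -1.54 to -0.60, and those of Cyp4a12a, Cyp4a12b, Selenbp2 and Elovl3 were larger in size than that of any of them.

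Steroid enzymes were among these. Hsd3b5, a steroid dehydrogenase of male liver, measured 7.90 under saline and 6.64 under PN, 2.39-fold lower, and a value that 2 rows shared by Hsd3b5 and its paralogs repeat, and that counts once, was 2.45-fold lower. Cyp7b1, the oxysterol hydroxylase, had 9.39 and 8.24, 2.22-fold lower. Cyp2d9, a testosterone hydroxylase and a classical male-specific P450, had 10.6 and 9.81 and was 1.69-fold lower. Cyp2f2, another P450, had 2 rows that were 2.37-fold and 2.55-fold lower.

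Complement genes were also on the list. C6, of the membrane attack complex, measured 9.35 under saline and 8.13 under PN, 2.34-fold lower. C4a, which encodes the sex-limited protein, a paralog of complement C4, was 1.66-fold lower, and Susd4, a complement regulator, was 2.37-fold lower. Keg1, of the glycine N-acyltransferase family, had 2 rows that were 2.22-fold and 1.83-fold lower, Ces3b, a carboxylesterase, was 1.90-fold lower. Serpina1e, of the antitrypsin family of secreted protease inhibitors, was 1.70-fold lower and Neb, which encodes nebulin, 1.87-fold. Each of these was lower by less than Elovl3.

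Few genes of the hormone's own signalling had a named row. Of 21 genes for the receptor, its kinase, STAT factors, phosphatases, feedback inhibitors and other signalling proteins, 3 had one. Each of these genes was at least 2-fold higher under PN, where 7.60% of named genes were higher by that much and 50.1% by 1.5-fold. Socs2, an inhibitor that growth hormone induces through STAT5B and that damps its receptor, had 5.12 and 6.16 as the mean of 2 rows. These rows were 1.64-fold and 2.58-fold higher. Socs3, a related inhibitor that cytokines also induce, had 4.49 and 5.69 (2.29-fold higher), and Irs2, an insulin receptor substrate, had 7.06 and 8.11 (2.08-fold higher). The genes of the receptor itself (Ghr), of Jak2, Stat5a and Stat5b and of the feedback inhibitor Cish had no named row. The part of growth hormone signalling in the lower levels of the 6 genes was not tested.

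Of 9 genes of the IGF1 axis, which growth hormone drives in liver, Igfbp1 alone had a named row. This insulin-repressed binding protein had 9.95 and 11.5, 2.88-fold higher, and Igf1 and Igfals, the circulating growth factor and its carrier subunit, had no named row. Of 21 liver transcription factors that act on sex-biased genes, 3 had one. Onecut1, which encodes HNF6, an activator of a female-specific P450 gene in rat liver, measured 7.50 under saline and 9.05 under PN, 2.93-fold higher. Trim24, a nuclear receptor cofactor, was 1.88-fold higher, and Foxa2, a pioneer factor, was 1.51-fold lower. Hnf4a, Bcl6 and Cux2, factors tied to male-biased or female-biased liver genes, had no named row.

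**Figure D3:**
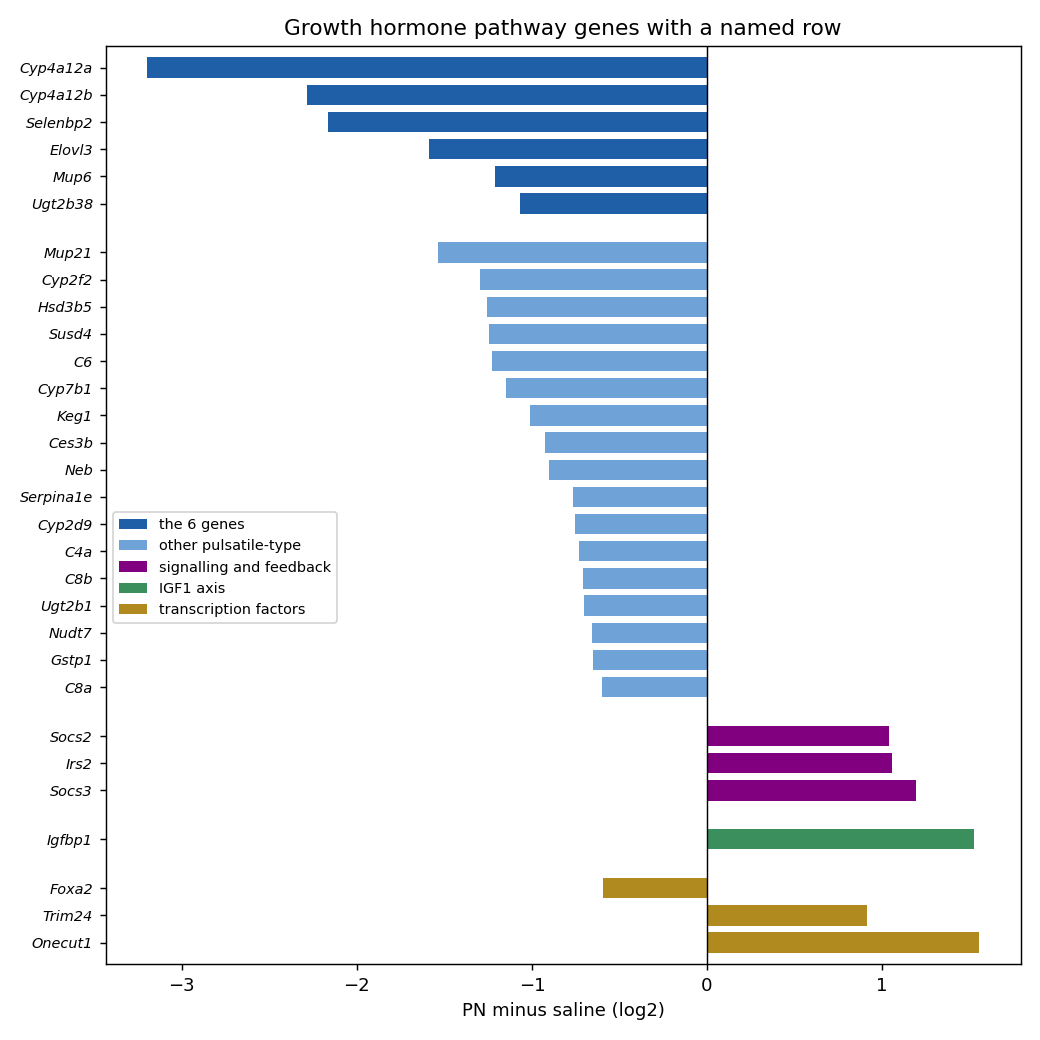
PN minus saline (log2) for the 6 genes, the 17 other genes of the pulsatile type, and the growth hormone signalling, IGF1 axis and transcription factor genes with a named row, 1 array of pooled RNA per group. Bars left of 0 are lower in the PN pool; all 23 genes of the pulsatile type lie left, and Socs2, Irs2, Socs3, Igfbp1, Trim24 and Onecut1 lie right.

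Genes of the continuous type went mostly the other way. Of 46 listed, 18 had a named row, of which 17 were higher and 1, Sult2a5, was lower in the PN pool. The median difference as deposited was 1.00 (2.00-fold higher). Over all named genes 50.1% were higher at 1.5-fold and 7.60% at 2-fold. Cyp2b9, a cytochrome P450, measured 6.34 under saline and 9.57 under PN, and Abcd2, a peroxisomal fatty acyl transporter, 4.72 and 7.29. Cyp17a1, a steroid hydroxylase, had 6.64 and 9.04. Sult3a1, a sulfotransferase gene, had 2.39 and 3.83, so its difference rests on a level under background. With that level raised to 3.26 it was at least 1.48-fold higher. Sult1e1 (2.91), Cyp2b13 (2.95) and Prom1 (3.21) also had saline levels under background, and Sult2a5 its PN level (3.23). No test of the contrast between the types was possible, and both lists were written with their directions known.

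Genes whose pair of levels lay nearest to a member's were found by Euclidean distance over the 2 arrays, among 1268 named genes that are not members, predicted genes, small RNAs or chemosensory receptors. Nearest to Cyp4a12a were Clec2h, a C-type lectin gene, at a distance of 0.49 log2 units and the plasma protein gene Orm3 at 0.78. Nearest to Cyp4a12b were Orm2 (0.28) and the glycogen-targeting subunit gene Ppp1r3c (0.40). Nearest to Selenbp2 were the sterol hydroxylase gene Cyp8b1 (0.34) and Cyp2f2 (0.62), and nearest to Elovl3 were Hal, histidine ammonia lyase (0.49), and Cd1d1 (0.54). The pseudogene Atp5c1-ps came first for both Ugt2b38 (0.16) and Mup6 (0.23), followed by Gimap1 (0.18) and Frmpd1os (0.24). With 2 arrays this says only that the levels are alike.

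Markers of other cells moved between the same pools. Of 22 macrophage markers 11 had a named row, each of them higher under PN, at levels of 4.40 to 8.39 under saline against 5.49 to 9.03 under PN and a mean of 6.52 against 7.53. Marco, a scavenger receptor gene, had the largest of these differences, with 4.81 and 7.17. Of 12 neutrophil markers 3, and of 17 markers of lymphocytes and NK cells 5, carried a row and were higher. Their saline levels ran from 3.95 to 5.22 and from 3.61 to 5.67. Several thus lay under 5.02, the 95th percentile of receptor genes. Over all named genes 50.1% were higher at 1.5-fold. In the other direction, the 2 of 10 erythroid markers with a row, Car1 (-0.83) and Klf1 (-0.75), were lower. Of 9 cholangiocyte markers 3 had a row, of which Epcam (-0.87) and Tspan8 (-0.59) were lower and Prom1 (1.06) was higher. By comparison, 49.8% of all named genes were lower at 1.5-fold. Of 11 stellate cell and fibroblast markers, Lum alone had a row and was higher (0.93). Of 17 hepatocyte markers, among them Alb, Apoa1 and Ttr, 0 had a named row, so the labelled tissue could not be checked through them, and 0 of 12 endothelial markers had one. The median difference of the 11 macrophage markers with a row was 0.81. The part of these other cells in the lower levels of the 6 genes was not tested.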

How the data were processed

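The deposited table gives 1 log2 level per probe set for each array, which the authors made by RMA (robust multi-array averaging, which subtracts background, brings arrays to one scale and merges the probes of a set) in Affymetrix Expression Console 1.4.0.38, per the submitters' processing notes. Per the design text, each array held RNA of 3 mice and rows under a 1.5-fold difference were left out by the authors. The smallest absolute difference found was 0.585. Genome build: not given in the sources used here.

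A single symbol was annotated for 1779 of the 5082 rows, several for 161 and none for 3142. Single-symbol rows were updated through Entrez identifiers to RefSeq (GRCm38.p6) and averaged per gene. A fold is 2 to the power of the difference as deposited, and list medians also use deposited levels. Where stated, a level under a receptor level was raised to it, which makes the fold a lower bound. Members, 21 gene lists and the alternatives were chosen with earlier results of these data known. All members and the 2 nearest genes of each are named. Other genes named from a list are among its 12 of largest absolute difference. Python 3.11.15, pandas 2.3.3 and numpy 2.4.6 were used, and the calculations were tested on simulated data.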

Additional observations from a re-analysis of the deposited data

How the results depend on the processing

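Alternatives comprised 2 ways of raising dim levels, counting rows with several symbols, the brightest row per gene, centring the arrays, quantile normalization and, chosen after seeing the data, counting the Cyp4a12 paralogs once. A difference was taken as moved past 0.1 on the log2 scale, since no replicate spread exists. Of 56 comparisons of a result with its alternative, 48 stayed within that tolerance, or within 1.5 times for counts, and 8 did not. Each member had 1 row and was in no row of several symbols. Counting such rows and taking the brightest row, 9 comparisons each, therefore could not change any value. Centring shifted every difference by the same small amount. A count that fell from 6 to 4 lay at the limit of 1.5 times and was taken as unmoved. With levels raised to 3.26, Ugt2b38 stood at -0.32 and Mup6 at -0.40. Raised to 5.02, the 95th percentile of receptor genes, both stood at 0 and Cyp4a12a at -2.48 (5.57-fold, against 9.17-fold as deposited). Quantile normalization gave -0.93 for Ugt2b38 and -1.07 for Mup6, which left 5 members at least 2-fold lower. Either way of raising levels left 4 at 1.5-fold and 4 at 2-fold. With the Cyp4a12 paralogs counted once the median was -1.59. Cyp4a12b, Selenbp2 and Elovl3 kept their differences within the tolerance under every alternative run. No paired analysis was possible because each group has 1 array. Nothing here measures the spread between mice, and dim levels near those of receptor genes limit Ugt2b38 and Mup6 most.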
